A study of Mus musculus with 59 samples.

Results

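Zfp951, Gm26573, Gm13212, 1700030N03Rik and Clec2d are 5 genes, of 51810 in the gene tables, that had been picked because their read counts were low in mouse bone marrow progenitors lacking Daxx. Their names were given by the rule, and the choice rested on the values of the Daxx-KO, WT and DKO libraries. Those values are therefore given as a description, with no p-value, and counts of calls only beside the share of all genes called. The rule also read the tables of a separate Pu.1 line. The p-values given for that line are therefore no check outside the choice. The genes did not all behave as the working name "lowered wherever Daxx is lost" says. In each of the 4 Daxx-KO and WT comparisons all 5 were lower, with no overlap between the libraries of the groups. In the libraries labelled DKO, which carry the floxed alleles of both Daxx and Pu.1, Zfp951 and Gm26573 stayed below every WT library in both cell types, Gm13212 did so in KLS cells, and 1700030N03Rik and Clec2d were within or above the WT range in every DKO library but GMP library 2.

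The study deleted Daxx, Pu.1 (encoded by Spi1) or both in C57BL/6 mice with Mx1Cre, an interferon-responsive recombinase induced by injection of pI:pC and active in many tissues besides blood. Comparisons were made between WT (Daxx +/+, Cre +/-), Daxx-KO (Daxx F/F, Cre +/-) and DKO (F/F for both Daxx and Pu.1, Cre +/-), and in a separate Pu.1 line between WT (Pu.1 +/+, Cre +/-) and Pu.1-KO (Pu.1 F/F, Cre +/-), so the controls with a time point carry the Cre as well. RNA came from KLS cells, the c-Kit+ Lin- Sca-1+ fraction that holds the stem cells, and from granulocyte-monocyte progenitors (GMPs), at 3 or 24 weeks post induction (wpi) or with no time, Cre or age on the label (called untimed). The study's methods also describe KLS cells and GMPs of lethally irradiated transplant recipients, sequenced in duplicate. Besides those at 3 and 24 wpi, these are the only KLS and GMP RNA libraries that the methods describe. The labels do not say whether the untimed libraries are those, so untimed and timed tables are kept apart. The libraries used were 2 WT and 2 Daxx-KO untimed, 3 WT, 3 Daxx-KO and 2 DKO at 3 wpi, 2 WT and 2 Pu.1-KO of the Pu.1 line and 2 WT at 24 wpi, for KLS cells and again for GMPs. Mice of both sexes were usually injected as juveniles or young adults. The floxed Daxx line was made on C57BL/6N and crossed to C57BL/6J Mx1Cre mice, and strain background and loss of Daxx cannot be told apart wherever the controls were not littermates. The 23 other samples (Daxx-deficient cells at 24 wpi, multipotent progenitors and long-term stem cells) would have tested the choice outside the tables it came from. They were not analysed here, because the labels did not tie each of their columns to a single genotype. At 24 wpi the columns left out are of Daxx-KO and DKO libraries, both Daxx F/F. These were not pooled against WT, so loss of Daxx at 24 wpi was not tested.

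Daxx is a chaperone of the histone variant H3.3. With the remodeller Atrx it places H3.3 in silent chromatin, among other places at retroelements and telomeres, where zinc finger proteins with a KRAB domain recruit the co-repressor Trim28 and the methyltransferase Setdb1. Pu.1 is the transcription factor that drives myeloid differentiation and binds sites with a GGAA core. Among the 5 genes, Zfp951 encodes a zinc finger protein. Gm13212 lies in the large zinc finger gene cluster of distal chromosome 4, where clustered genes have near-identical copies. Gm26573 is a long noncoding RNA of the same cluster, 1700030N03Rik a long noncoding RNA of chromosome 19 with no established role, and Clec2d encodes Clr-b, a lectin-like surface protein that inhibits natural killer cells through the receptor NKR-P1B.

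All positions are on GRCm38. Zfp951 spans 104813169 to 104860070 on the minus strand of chromosome 5, over 3 annotated transcripts. Gm13212 spans 145585166 to 145625345 on the plus strand of chromosome 4. Gm26573 lies on the minus strand from 146153456 to 147024959, with its 3′ end 528 kb beyond the end of Gm13212. Gm26573 stretches over 872 kb with only 3020 exonic bases, and 26 other annotated genes, 7 of them protein-coding, lie in its span, none sharing an exonic base with it. 1700030N03Rik spans 3053071 to 3197732 on the minus strand of chromosome 19 with 9 transcripts, and Clec2d spans 129180615 to 129186534 on the plus strand of chromosome 6. Whether reads were counted by strand is not given in the sources used here, and Gm13212 and 1700030N03Rik also overlap other genes, most of them on the opposite strand. None of the genes overlapping these 3 shares an annotated exonic base with them, whereas reads of near-identical zinc finger copies may be split between copies.

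Daxx and Pu.1 both act on chromatin at regulatory DNA, and in DKO libraries some of the genes stayed low and others did not. The 250 bases upstream of the RefSeq start are therefore shown for the 4 genes with a promoter in the RefSeq table (GRCm38.p6). Each runs 5′ to 3′ on the gene's own strand, in lower case, and capitals mark every match to the motifs searched on both strands: GGAAGT (a form of ETS and Pu.1 sites, longer than their GGAA core), CCAAT (NF-Y), GGGCGG (Sp1), TATAAA (the TATA box of core promoters), CACGTG (the E-box bound by Myc and relatives), TGACGTCA (the site of CREB factors) and the core of interferon-stimulated response elements (GAAA, any 2 bases, GAAA).
Zfp951 (chr5:104860069-104860318, minus strand): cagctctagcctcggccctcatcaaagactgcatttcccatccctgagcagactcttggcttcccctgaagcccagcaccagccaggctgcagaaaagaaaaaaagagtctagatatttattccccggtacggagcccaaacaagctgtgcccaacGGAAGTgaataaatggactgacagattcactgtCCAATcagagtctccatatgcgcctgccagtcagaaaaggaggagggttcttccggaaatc
Gm13212 (chr4:145584950-145585199, plus strand): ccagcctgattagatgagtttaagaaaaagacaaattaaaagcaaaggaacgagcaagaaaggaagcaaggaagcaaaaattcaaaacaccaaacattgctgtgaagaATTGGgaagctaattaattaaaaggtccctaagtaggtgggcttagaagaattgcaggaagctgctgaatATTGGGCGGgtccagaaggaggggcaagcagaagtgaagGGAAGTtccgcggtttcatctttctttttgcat
1700030N03Rik (chr19:3197704-3197953, minus strand): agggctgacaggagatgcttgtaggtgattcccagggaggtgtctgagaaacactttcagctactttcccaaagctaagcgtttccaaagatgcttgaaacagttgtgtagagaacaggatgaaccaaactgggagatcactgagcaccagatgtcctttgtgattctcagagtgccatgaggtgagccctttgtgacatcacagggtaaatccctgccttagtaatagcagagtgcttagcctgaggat
Clec2d (chr6:129180365-129180614, plus strand): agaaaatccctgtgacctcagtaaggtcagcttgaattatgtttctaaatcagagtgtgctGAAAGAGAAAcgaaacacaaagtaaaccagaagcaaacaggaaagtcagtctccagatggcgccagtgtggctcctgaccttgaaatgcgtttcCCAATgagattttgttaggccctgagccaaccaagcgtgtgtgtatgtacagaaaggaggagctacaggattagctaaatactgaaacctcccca

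GGAAGT was found once before Zfp951, 94 bases before the RefSeq start, and once before Gm13212, 33 bases before its RefSeq start. Of the 32851 promoter windows of the table, 19.7% hold it. RefSeq starts differ from the spans given above for Zfp951, Gm13212 and 1700030N03Rik, whose windows end inside those spans. The shorter GGAA core was not searched, and it also occurs unmarked in the windows shown, on either strand. CCAAT was found in Zfp951 at 61 bases, in Gm13212 at 142 and 72 bases and in Clec2d at 95 bases, beside 33.8% of all windows, and GGGCGG was found in Gm13212 at 69 bases, overlapping the second CCAAT match, beside 32.7%. The interferon core was found in Clec2d at 189 bases, beside 2.98% of all windows. No TATA box, E-box or CREB match, held by 12.4%, 6.02% and 1.55% of windows, lay in any of the 4, and 1700030N03Rik held no match to any of the 7. GC content was 51.2% for Zfp951, 41.6% for Gm13212, 47.6% for 1700030N03Rik and 44.8% for Clec2d, beside a median of 52.4% over all windows. These matches are a description of the letters only.

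Values are normalized counts, reads divided by 1 size factor per library, which can be compared within a table but not between tables. The 36 libraries held 3388906 to 29335964 reads in genes, and the untimed libraries were the shallowest and most uneven (3388906 to 22647397). Daxx itself checked the labels. Its normalized counts in KLS cells at 3 wpi were 423, 467 and 505 in WT libraries, 82.6, 102 and 72.2 in Daxx-KO libraries and 93.9 and 78.1 in DKO libraries, and in GMPs 642, 622 and 688 in WT libraries, 83, 55.1 and 78.1 in Daxx-KO libraries and 62.9 and 78.9 in DKO libraries. The untimed values were 119 and 138 in WT libraries and 33.9 and 29.7 in Daxx-KO libraries for KLS cells, and for GMPs 215 and 143 in WT libraries and 44.6 and 22.8 in Daxx-KO libraries. Spi1 did not show the loss that the DKO label states: it was 1676, 1669 and 2320.0 in WT libraries, 1484, 1679 and 1482 in Daxx-KO libraries and 3330.4 and 2993 in DKO libraries in KLS cells, and 4384, 3348 and 4604 in WT libraries, 3589.9, 3959 and 3532 in Daxx-KO libraries and 3846 and 2989 in DKO libraries in GMPs. By limma the DKO KLS libraries were higher in Spi1 than WT (log2 fold change 0.76 ± 0.17, adjusted p = 0.0155). They were also higher than Daxx-KO (1.03 ± 0.17, adjusted p = 0.00346). In untimed cells the mean Spi1 was 419 in WT and 1124 in Daxx-KO KLS libraries (limma, adjusted p = 6.57e-05). For untimed GMPs it was 1115 in WT and 2022 in Daxx-KO libraries (adjusted p = 0.00016). In the Pu.1 line Spi1 was 2764 and 2080.1 in WT and 2920.5 and 1307 in Pu.1-KO KLS libraries, and in GMPs 3395 and 3934 in WT and 2589 and 2707 in Pu.1-KO libraries, lower without overlap but not past limma's threshold (log2 fold change -0.46 ± 0.24, adjusted p = 0.153). Whether the counted reads come from outside the deleted part is not known, so these are written below as the libraries labelled DKO and Pu.1-KO. All 8 KLS markers were detected in each KLS group and all 8 GMP markers in each GMP group. All 8 of each list were also detected in every group of the other cell type, so detection does not tell the cell types apart. Cell makeup differed between groups. In untimed KLS cells the summed level of 8 stem and progenitor markers was 37946 to 39485 in WT and 8983 to 9509 in Daxx-KO libraries, and that of 8 GMP markers 813 to 1445 against 12455 to 16099. In KLS libraries at 3 wpi, 5 neutrophil markers summed to 489 to 26310.0 in WT, 868 to 5807 in Daxx-KO and 132892 to 164317 in DKO libraries. The 8 GMP markers there summed to 5077 to 44859 in WT, 3941 to 13498 in Daxx-KO and 105802 to 110119 in DKO libraries. The 8 stem and progenitor markers summed to 64165 to 91159, 37955 to 71006 and 26835 to 35118 in the same order. The KLS libraries labelled DKO thus held more GMP than stem and progenitor marker signal. The part of cell makeup in the results below was not tested.

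Zfp951 was the most strongly lowered of the 5 in every Daxx-KO comparison. Its normalized counts in untimed KLS cells were 308 and 437 in WT libraries and 2.19 and 0.606 in Daxx-KO libraries, that is 373 ± 91.6 against 1.4 ± 1.12 (SD, n = 2 each). The Daxx-KO libraries held 4 reads in all against 433 in WT, a ratio of 0.255% with a 95% interval of 0.0691 to 0.657% that covers counting error only. In untimed GMPs it was 189.9 and 305 in WT libraries and 2.03 and 1.63 in Daxx-KO libraries, with 5 reads against 484. At 3 wpi KLS cells kept more of it: 879, 756 and 839 in WT libraries, 24.9, 22.4 and 26.2 in Daxx-KO libraries and 74.7 and 16.4 in DKO libraries. The Daxx-KO mean was 24.5 ± 1.89 (SD, n = 3), 2.97% of the WT mean of 825 ± 62.9 (SD, n = 3). In GMPs at 3 wpi the values were 209, 387 and 244 in WT libraries, 2.93, 0.95 and 9.88 in Daxx-KO libraries and 7.1 and 0.986 in DKO libraries, and the Daxx-KO libraries held 14 reads against 864 in WT, a ratio of 1.58% with an interval of 0.861 to 2.67%. No Daxx-KO library came near the lowest WT library in any of the 4 tables. Log2 fold changes were -7.35 ± 0.50 (SE) in untimed KLS cells, -6.42 ± 0.45 in untimed GMPs, -5.02 ± 0.47 in KLS cells at 3 wpi and -5.96 ± 0.75 in GMPs at 3 wpi. These are on the log2(value + 1) scale, which understates the change where counts are near 0. In bulk RNA, fewer expressing cells and less RNA per cell cannot be told apart, here and for the other genes.

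The libraries labelled DKO overlapped the Daxx-KO libraries in Zfp951 in both cell types. In KLS cells DKO library 1 held 74.7 and library 2 held 16.4, the first above and the second below all 3 Daxx-KO libraries. The DKO mean was 45.6 ± 41.3 (SD, n = 2), 5.53% of WT, and the DKO minus Daxx-KO log2 difference was 0.51 ± 0.52 in KLS cells and -0.12 ± 0.83 in GMPs. Without DKO library 1 the KLS difference was -0.55, and without DKO library 2 it was 1.57.

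**Figure D1:**
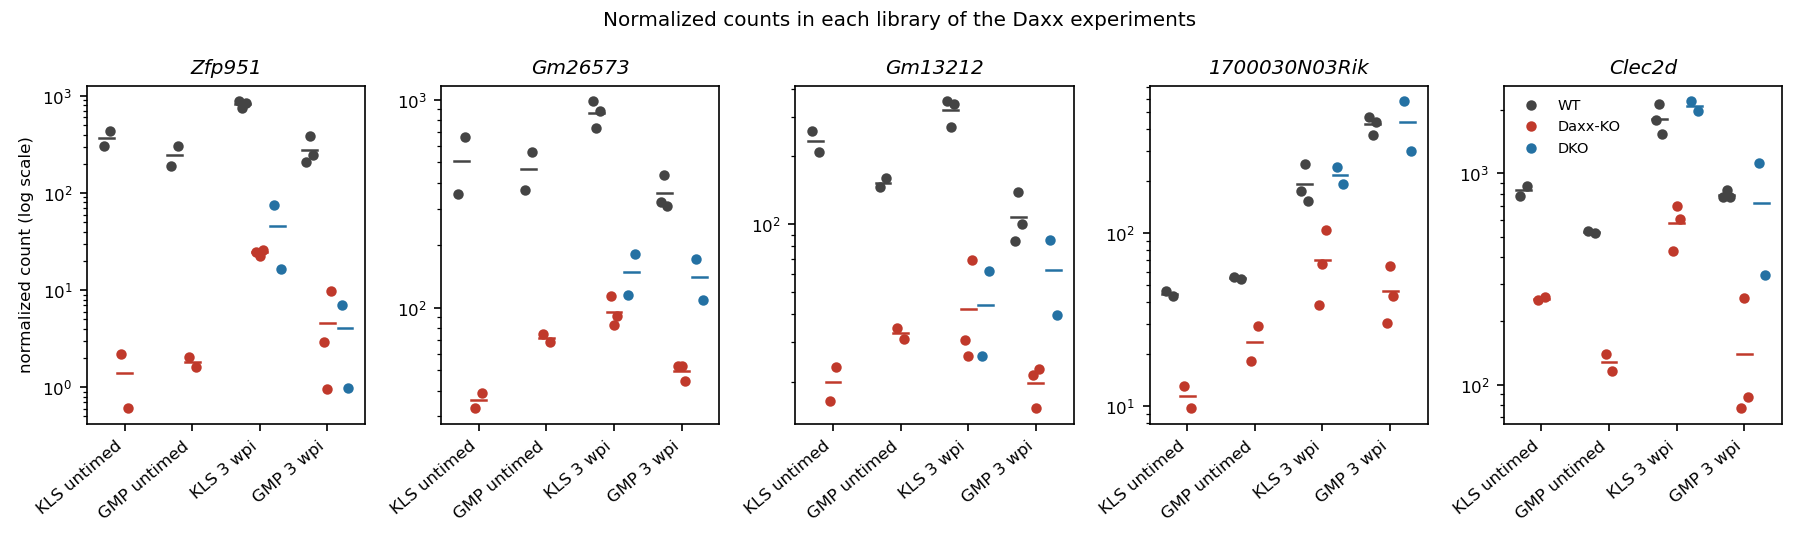
Normalized count (y axis, log scale) of each of the 5 genes, 1 panel a gene, in every WT, Daxx-KO and DKO library of the untimed and 3 wpi KLS and GMP tables (x axis), with 1 point a library and a line at the group mean. Daxx-KO points lie below all WT points of the same table, whereas in KLS cells at 3 wpi the DKO points of Clec2d and 1700030N03Rik lie within or above the WT points.

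The long noncoding RNA Gm26573 kept more of its level than Zfp951. Its untimed normalized counts in KLS cells were 354 and 663 in WT libraries and 32.8 and 39.1 in Daxx-KO libraries (7.07% of the WT mean), and in untimed GMPs 367 and 560.2 in WT libraries and 75 and 68.5 in Daxx-KO libraries (15.5%). In KLS cells at 3 wpi they were 983, 732 and 883 in WT libraries, 114, 82.5 and 91 in Daxx-KO libraries and 115 and 182 in DKO libraries. The 3 Daxx-KO libraries (95.9 ± 16.4, SD) held 11.1% and the 2 DKO libraries (149 ± 47.5, SD) 17.2% of the WT mean of 866 ± 127, and all 5 lay far below the lowest WT library. In GMPs the values were 321, 437 and 308 in WT libraries, 52.7, 52.3 and 44.5 in Daxx-KO libraries and 171 and 109 in DKO libraries. Here the DKO libraries stood between the other groups, at 39.5% of WT against 14% for Daxx-KO, and touched neither. The DKO minus Daxx-KO log2 difference was 0.60 ± 0.27 in KLS cells and 1.45 ± 0.30 in GMPs.

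Gm13212, a protein-coding gene of the same zinc finger cluster, had a similar pattern. In untimed cells it was 259.8 and 210.1 in WT libraries and 16.4 and 23.3 in Daxx-KO libraries for KLS, and 146 and 159.9 in WT libraries and 34.5 and 31 in Daxx-KO libraries for GMPs. At 3 wpi it was 351, 270.1 and 340.1 in WT libraries, 30.5, 26 and 69 in Daxx-KO libraries and 25.9 and 61.7 in DKO libraries of KLS cells, and Daxx-KO and DKO libraries overlapped each other but not WT. The means were 320.5 ± 44 in WT, 41.9 ± 23.6 in Daxx-KO and 43.8 ± 25.3 in DKO libraries (SD). In GMPs it was 84.1, 139 and 100.1 in WT libraries, 21.5, 15.2 and 22.7 in Daxx-KO libraries and 85.2 and 39.5 in DKO libraries, so that DKO library 1 reached the lowest WT library while DKO library 2 did not. The Daxx-KO log2 fold changes were -3.51 ± 0.30, -2.19 ± 0.26, -3.03 ± 0.45 and -2.37 ± 0.40 in untimed KLS cells, untimed GMPs, KLS cells at 3 wpi and GMPs at 3 wpi. For DKO against WT they were -2.96 ± 0.50 in KLS cells and -0.85 ± 0.45 in GMPs.

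Clec2d was lower in all Daxx-KO libraries and at or near WT levels in 3 of the 4 DKO libraries. It was 784 and 875 in WT libraries and 252 and 258 in Daxx-KO libraries among untimed KLS cells (30.7% of the WT mean), and in untimed GMPs 535 and 520.5 in WT libraries and 139.9 and 116 in Daxx-KO libraries (24.3%). In KLS cells at 3 wpi it was 1784, 2120.3 and 1536 in WT libraries, 429, 702 and 609.9 in Daxx-KO libraries and 2189 and 1972 in DKO libraries. The Daxx-KO mean of 580.1 ± 139 was 32% of the WT mean of 1813 ± 293, while the DKO mean of 2081 ± 154 was 115% of it (SD). Both DKO libraries lay in or above the WT range. In GMPs it was 774, 832 and 771 in WT libraries, 77.1, 256 and 87 in Daxx-KO libraries and 1120.1 and 329 in DKO libraries. The DKO libraries there went apart: library 1 was above every WT library and library 2 below every one, though above all Daxx-KO libraries. The same DKO libraries also differed in the summed level of 8 B cell and plasma cell markers, 4811 in library 1 and 473 in library 2, and Daxx-KO library 2, the highest of its group in Clec2d, had the highest such sum in both KLS cells (44222) and GMPs (9178). Other libraries went the other way. In KLS cells at 3 wpi the unnumbered WT library had the highest sum of the WT libraries (8129 against 908 and 858) and the lowest Clec2d, and Daxx-KO libraries 1 and 3 had higher sums (6044 and 7028) than WT libraries 1 and 2 with less Clec2d. The part of these cells in the Clec2d values was not tested. The DKO minus Daxx-KO log2 difference was 1.87 ± 0.22 in KLS cells and 2.33 ± 0.56 in GMPs, and the GMP difference was 3.21 without DKO library 2 and 1.45 without DKO library 1.

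1700030N03Rik had the pattern of Clec2d. In untimed cells it was 46.4 and 43.1 in WT libraries and 13.1 and 9.7 in Daxx-KO libraries for KLS, and 55.9 and 54.2 in WT libraries and 18.2 and 29 in Daxx-KO libraries for GMPs. In KLS cells at 3 wpi it was 175, 252 and 154 in WT libraries, 38.5, 66.4 and 105 in Daxx-KO libraries and 241 and 192 in DKO libraries, and the Daxx-KO libraries, though all below WT, were widely spread. In GMPs the gap was wider: 469.5, 368 and 439.6 in WT libraries, 30.3, 64.6 and 43.5 in Daxx-KO libraries and 579 and 299 in DKO libraries. The Daxx-KO mean in GMPs was 46.1 ± 17.3, 10.8% of the WT mean of 426 ± 52.2, and the DKO mean was 439 ± 198, 103% of it (SD). The Daxx-KO log2 fold change was -1.54 ± 0.37 in KLS cells and -3.24 ± 0.34 in GMPs at 3 wpi, and -1.90 ± 0.48 and -1.22 ± 0.38 in untimed KLS cells and GMPs. Against Daxx-KO the DKO libraries were higher by 1.72 ± 0.42 in KLS cells and 3.21 ± 0.38 in GMPs on the log2 scale.

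**Figure D2:**
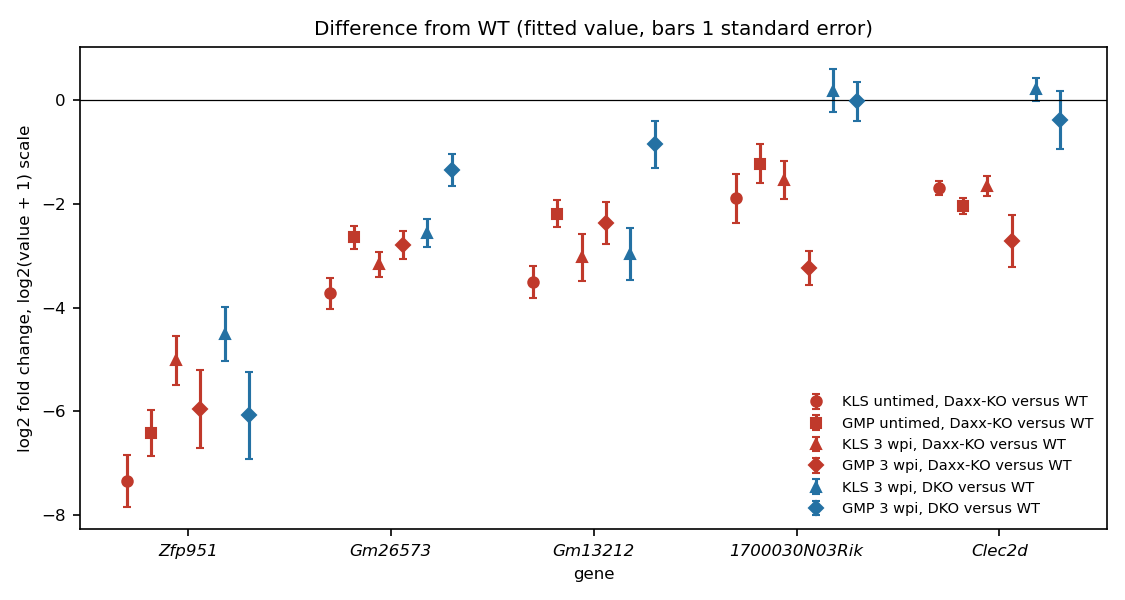
Log2 fold change from WT on the log2(value + 1) scale (y axis, bars 1 SE) of each of the 5 genes (x axis), in red for Daxx-KO and in blue for DKO, with 1 symbol a table. Zfp951 is the lowest in each comparison (-7.35 to -4.51), whereas 1700030N03Rik (0.18 and -0.03) and Clec2d (0.21 and -0.38) are near 0 for DKO against WT.

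A fit of limma across all genes (call at a Benjamini-Hochberg adjusted p under 0.05) put the genes beside the rest of the transcriptome. The genes had been chosen on these contrasts, so the counts are given beside the share of all genes and nothing is read from them. All 5 were called lower in untimed KLS cells, beside 12.5% of the genes tested, and in untimed GMPs all 5, beside 16.5%. At 3 wpi 4 of the 5 were called lower in KLS cells (1700030N03Rik was not), beside 0.0724%, or 11 of 15200 genes. In GMPs at 3 wpi Zfp951, Gm26573 and 1700030N03Rik were called lower, beside 0.0292%, or 4 of 13714. For DKO against WT the calls were Zfp951, Gm26573 and Gm13212 in KLS cells, beside 8.4%, and Zfp951 in GMPs, beside 0.0802%. For DKO against Daxx-KO, 1700030N03Rik and Clec2d were called higher in KLS cells, beside 8.17%, and 1700030N03Rik in GMPs, beside 0.0583%. Non-overlap of the Daxx-KO libraries below WT was itself found for 29.8% of genes in untimed KLS cells, 34.1% in untimed GMPs, 9.16% in KLS cells at 3 wpi and 3.46% in GMPs at 3 wpi. For DKO below WT it was found for 23.7% in KLS cells (3 of the 5) and 8.41% in GMPs (2 of the 5), and for DKO above Daxx-KO for 22.3% in KLS cells (3 of the 5) and 10.7% in GMPs (4 of the 5). Leaving out Daxx-KO library 2 took the untimed KLS count of calls from 5 to 3, leaving out WT library 1 or 2 took that of KLS cells at 3 wpi from 4 to 2, and leaving out the unnumbered WT library took that of GMPs at 3 wpi from 3 to 1.

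In the Pu.1 line the contrast was Pu.1-KO against WT, which is not a loss of Daxx by its labels. Its tables were among those the rule read, so the tests here are not a check outside the choice. Daxx itself was lower without overlap in both cell types, with 920.3 and 625 in WT and 478 and 295 in Pu.1-KO KLS libraries (log2 fold change -1.01 ± 0.57, adjusted p = 0.234) and 788 and 787 in WT and 558 and 701 in Pu.1-KO GMP libraries (log2 fold change -0.33 ± 0.25, adjusted p = 0.33), neither past the threshold. The share of all genes that lie apart in this line is not given here. In the untimed comparisons, also 2 against 2 libraries, 29.8% of genes in KLS cells and 34.1% in GMPs were lower without overlap. In GMPs 1700030N03Rik was 138 and 78.3 in WT and 325 and 339 in Pu.1-KO libraries, and it rose with a log2 fold change of 1.67 ± 0.32 (limma, adjusted p = 2.36e-05, higher in 2 of 2 libraries). Clec2d was 529 and 541 in WT and 817 and 908 in Pu.1-KO libraries, a rise of 0.69 ± 0.25 (adjusted p = 0.0373, higher in 2 of 2). These 2 of the 5 genes were called higher beside 9.15% of all genes tested, and none lower beside 8.49%. Without WT library b, whose 1700030N03Rik was the lower of the pair, neither passed (adjusted p = 0.343 for 1700030N03Rik and 0.631 for Clec2d), and without WT library a Clec2d did not (adjusted p = 0.424). The other genes did not pass the test in GMPs. Zfp951 was 229 and 238 in WT and 124 and 168 in Pu.1-KO libraries (-0.69 ± 0.32, adjusted p = 0.116), and without Pu.1-KO library b it passed as lower (-0.91, adjusted p = 0.00902). Gm26573 was 369 and 204 in WT and 470.5 and 363 in Pu.1-KO libraries (0.59 ± 0.28, adjusted p = 0.116) and passed as higher without the same library (0.78, adjusted p = 0.00407). Gm13212 was 83.6 and 54.8 in WT and 69.3 and 69.4 in Pu.1-KO libraries (0.03 ± 0.46, adjusted p = 0.965). Cell makeup moved with the groups here too. In these GMP libraries the neutrophil markers summed to 151617 to 154760.5 in Pu.1-KO and 27531 to 34218 in WT, the B cell and plasma cell markers to 2856 to 4890.2 and 1371 to 1448, and the GMP markers to 106643 to 189026 and 266835 to 290570.4, and their part was not tested.

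In KLS cells of the Pu.1 line none of the 5 passed limma's test, at adjusted p from 0.358 to 0.882, where 0.341% of genes were called lower and 0.469% higher. At unadjusted p under 0.05 the count over all genes was 6071. Zfp951 was 606 and 716 in WT and 496 and 308 in Pu.1-KO libraries (log2 fold change -0.75 ± 0.57), and Gm26573 was 749.5 and 749 in WT and 944 and 1511 in Pu.1-KO libraries (0.67 ± 0.58). 1700030N03Rik was 366 and 335 in WT and 429 and 785 in Pu.1-KO libraries (0.73 ± 0.57), and Pu.1-KO library b was the higher of the pair in it and in Gm26573. Clec2d was 1553 and 1348 in WT and 1621 and 1072 in Pu.1-KO libraries (-0.13 ± 0.60) and Gm13212 was 179 and 159 in WT and 177 and 247 in Pu.1-KO (0.30 ± 0.62). The Pu.1-KO libraries also held fewer stem cell markers (14608 to 35776 against 58666 to 70724) and more neutrophil markers (57059 to 117059.6 against 22064 to 39708), whose part was not tested.

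**Figure D3:**
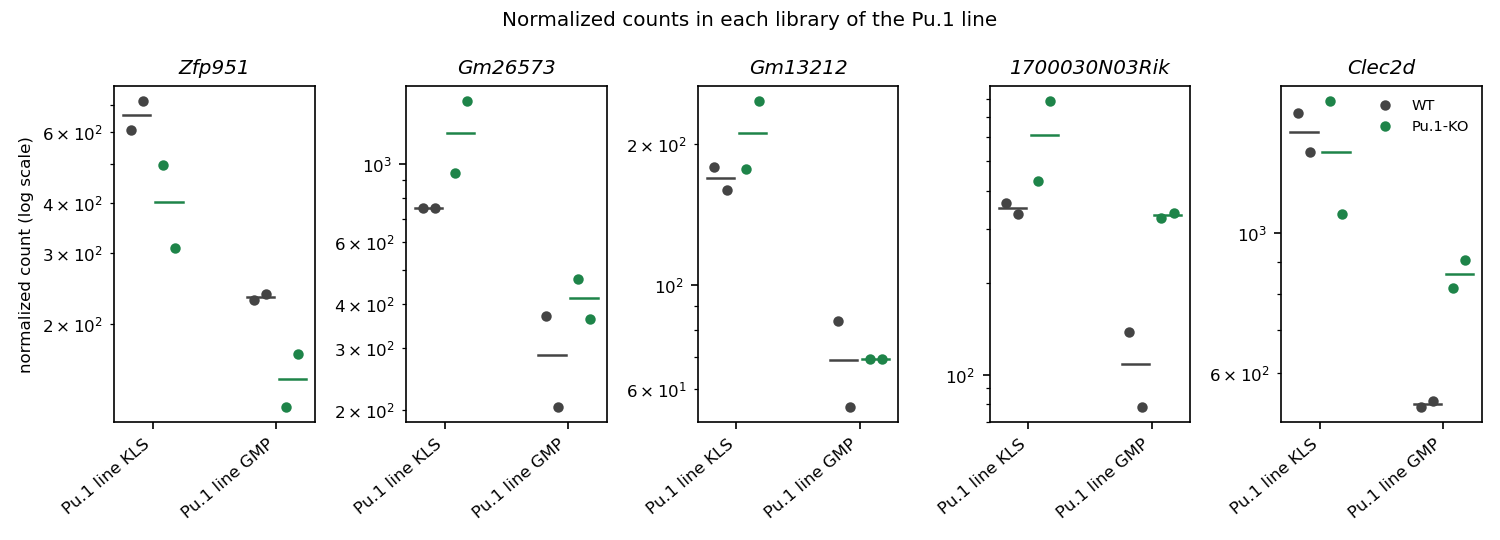
Normalized count (y axis, log scale) of the 5 genes in each WT and Pu.1-KO library of the Pu.1 line, KLS cells and GMPs at 3 wpi (x axis), with 1 point a library and a line at the group mean. In GMPs both Pu.1-KO points of 1700030N03Rik and Clec2d lie above both WT points, both of Zfp951 lie below, and the groups overlap for Gm13212 and Gm26573. The share of all genes lying apart in this line is not given.

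KLS cells and GMPs of the same animal could be compared at 3 wpi, as reads per 1000000 gene reads. In WT animals 1, 2 and the unnumbered one, the GMP level of Clec2d was 0.433, 0.428 and 0.503 of the KLS level. It was 0.184, 0.389 and 0.156 in Daxx-KO animals, below every WT ratio, and 0.617 and 0.178 in DKO animals, on either side of WT. 1700030N03Rik was higher in GMPs than in KLS cells of WT animals, with ratios of 2.68, 1.6 and 2.86. In Daxx-KO animals the ratios were 0.806, 1.04 and 0.455, again below every WT animal, and in DKO animals 2.89 and 1.66, near either end of the WT range. For the other genes the Daxx-KO and WT ratios overlapped. Daxx-KO ratios were 0.0453 to 0.414 for Zfp951, 0.472 to 0.677 for Gm26573 and 0.361 to 0.72 for Gm13212. WT ratios were 0.237 to 0.56, 0.326 to 0.652 and 0.239 to 0.56 in the same order. How many of all genes lie apart in this ratio was not counted. In the Pu.1 line the Clec2d ratio was 0.514 and 0.463 in WT and 0.74 and 0.727 in Pu.1-KO animals.

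**Figure D4:**
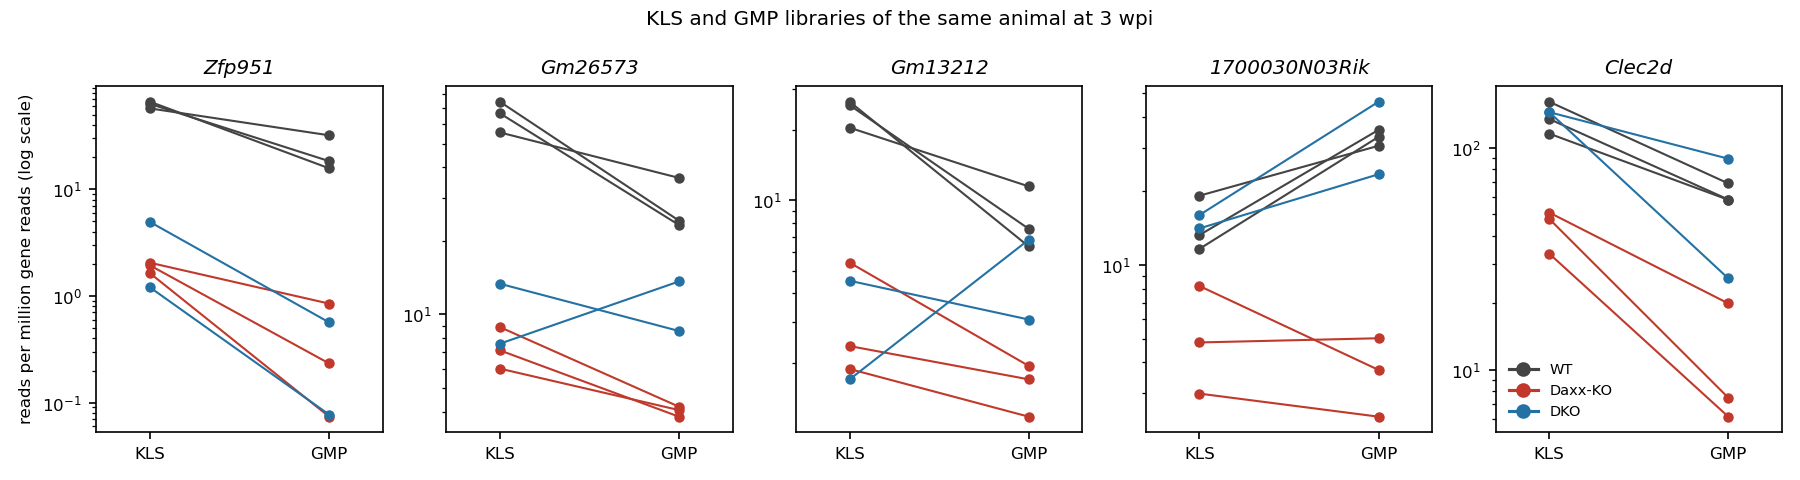
Level of each gene in KLS cells and GMPs (x axis) of the same animal at 3 wpi, in reads per 1000000 gene reads (y axis, log scale), with 1 line an animal coloured by genotype. The lines of Clec2d are steeper downward in the 3 Daxx-KO than in the 3 WT animals, and those of 1700030N03Rik rise in WT and DKO animals but not in 2 of the 3 Daxx-KO animals.

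WT levels differed between cell types and experiments. Tables were normalized separately, so the order is given in reads per 1000000 gene reads, within a gene and without a test. Clec2d was highest in 3 of the 4 KLS tables, at 137 ± 22.8 at 3 wpi (SD, n = 3), 124 ± 7.54 untimed (n = 2) and 110.5 ± 2.95 at 24 wpi (n = 2), the first and second overlapping. KLS cells of the Pu.1 line (80.5 ± 4.39, n = 2) came below untimed GMPs (82.4 ± 1.22, n = 2) and overlapped them, and the level was lowest in GMPs of the Pu.1 line at 39.2 ± 0.749 (n = 2). Zfp951 ranged from 62.3 ± 4.53 in KLS cells at 3 wpi to 17.1 ± 0.115 in GMPs of the Pu.1 line, with each neighbouring pair in the order overlapping except the last. Gm26573 ranged from 75.5 ± 31.3 in untimed KLS cells to 21.2 ± 9.31 in GMPs of the Pu.1 line, and Gm13212 from 35 ± 5.79 to 5.1 ± 1.67 in the same 2 tables. 1700030N03Rik had another order, led by GMPs at 3 wpi (33 ± 2.45), apart from all other tables, and ending with KLS cells at 24 wpi (5.93 ± 3.33). At 24 wpi the WT normalized counts were 763 and 640.2 for Zfp951, 840.4 and 794 for Gm26573, 270.5 and 278 for Gm13212, 85.8 and 195 for 1700030N03Rik and 2600.3 and 2656 for Clec2d in KLS cells, so the older WT animals still expressed all 5. In GMPs they were 433 and 532, 498 and 909, 129.9 and 186, 205 and 180.3 and 1115 and 1311 in the same order of genes.

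The genes fell into 2 patterns over the 24 Daxx, WT and DKO libraries. The likeness was Pearson's r of log2(value + 1), centred within each table, over 24 libraries and 11749 genes. It is a description, since every gene that differs between genotypes shares the pattern. Gm26573 was most like Gm13212 (r = 0.96), and Zfp951 correlated with Gm26573 at 0.92. Clec2d was most like 1700030N03Rik (0.94). Correlations between the 2 sets were 0.63 to 0.78. Outside the 5, Zfp951 was most like Gm21989 (0.95), a processed transcript of chromosome 12, and then Daxx itself (0.94). Gm21989 was 203, 256 and 198 in WT libraries, 20.4, 5.38 and 8.37 in Daxx-KO libraries and 22 and 4.82 in DKO libraries in KLS cells at 3 wpi, and stayed low in DKO libraries as Zfp951 did. Clec2d was next most like Fam129a (0.85) and the noncoding RNA 2310001H17Rik (0.83).

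2310001H17Rik lies beside Clec2d, at 129208412 to 129238725 on the minus strand of chromosome 6. It was 332 and 362 in WT libraries and 12 and 3.94 in Daxx-KO libraries in untimed KLS cells (log2 fold change -5.44 ± 0.46), and 114 and 120.2 in WT libraries and 6.08 and 2.04 in Daxx-KO libraries in untimed GMPs (-4.67 ± 0.53). In KLS cells at 3 wpi it was 1029, 1217 and 969 in WT libraries, 429, 275 and 566 in Daxx-KO libraries and 915 and 859.7 in DKO libraries. All Daxx-KO libraries were below all others, with a log2 fold change from WT of -1.39 ± 0.24. It was picked for its likeness over these libraries, so the values are a description. In GMPs it was 240.0, 244 and 236 in WT libraries, 23.4, 72.2 and 28.7 in Daxx-KO libraries and 308 and 53.3 in DKO libraries, and the DKO libraries split as for Clec2d, library 1 high and library 2 low.

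Within 500 kb of the 5 genes, 175 annotated genes were listed and 164 were in the tables. By limma's adjusted p, 7 of 39 tested neighbours rose and 11 fell in untimed Daxx-KO KLS libraries, where 10.6% of all genes rose and 12.5% fell. In untimed GMPs 7 of 38 rose and 8 fell, beside 16.6% and 16.5% of all genes. At 3 wpi none of 47 passed in KLS cells and none of 39 in GMPs, where 0.184% and 0.0656% of all genes rose. For DKO against WT 6 of 47 rose and 5 fell in KLS cells, beside 9.24% and 8.4% of all genes, and none rose and 1 of 39 fell in GMPs, beside 0.211% and 0.0802%. Next to Zfp951, Abcg3 fell in untimed KLS cells (320.0 and 315 in WT and 4.38 and 2.42 in Daxx-KO libraries, log2 fold change -6.21 ± 0.40, adjusted p = 2.12e-05) but at 3 wpi it was 1527, 877 and 738 in WT libraries, 584, 371 and 839 in Daxx-KO libraries and 209.8 and 604 in DKO libraries (log2 fold change -0.81 ± 0.43, adjusted p = 0.489 for Daxx-KO). Gbp8, an interferon-inducible GTPase gene, and Pkd2, which encodes the cation channel polycystin-2, fell in untimed KLS cells too (-5.22 ± 0.60 and -2.07 ± 0.16). Next to 1700030N03Rik, Cpt1a, which encodes the carnitine transferase of mitochondrial fatty acid uptake, rose in untimed KLS cells (log2 fold change 0.77 ± 0.10, adjusted p = 0.000878) and in untimed GMPs, where it was 838 and 896 in WT and 1855 and 1937 in Daxx-KO libraries (adjusted p = 4.51e-05).

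**Figure D5:**
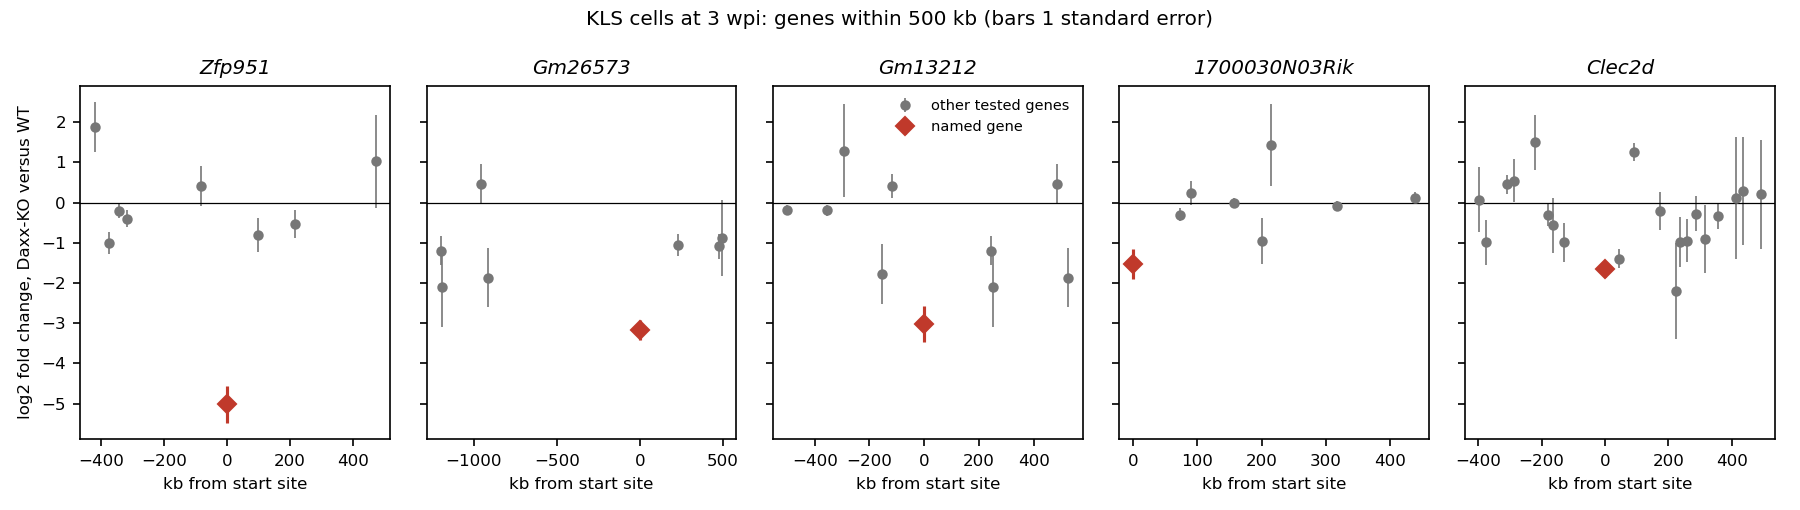
Log2 fold change of Daxx-KO against WT in KLS cells at 3 wpi (y axis, bars 1 SE) for each of the 5 genes (red diamonds) and the tested genes within 500 kb of its body (grey points), by distance from its start site in kb (x axis, which runs further for Gm26573 because its body spans 872 kb). In the Clec2d panel the point nearest to Clec2d is 2310001H17Rik, at -1.39.

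Relatives of Clec2d moved in both directions. Of 11 other genes of the Clec2 family and their NKR-P1 receptors, 3 were tested in untimed KLS cells and all 3 rose in Daxx-KO libraries, beside 10.6% of all genes. Clec2i, a ligand of a related receptor, was 34.4 and 49.95 in WT and 292 and 308 in Daxx-KO libraries (log2 fold change 2.82 ± 0.25, adjusted p = 9.79e-05), Clec2g was 10.3 and 10.3 in WT and 131 and 93.9 in Daxx-KO libraries (log2 fold change 3.31 ± 0.40, adjusted p = 0.000566), and the receptor gene Klrb1f rose by 2.03 ± 0.36. In untimed GMPs Clec2i rose and Clec2g and Klrb1f fell, of 4 tested, beside 16.6% and 16.5% of all genes. At 3 wpi none of 5 passed in KLS cells and none of 4 in GMPs for Daxx-KO against WT, and Clec2f fell in DKO KLS libraries (log2 fold change -2.90 ± 0.78, adjusted p = 0.0307). The median log2 fold change of the list was 0.07 in KLS cells at 3 wpi and -0.42 in GMPs, beside -0.000521 and -0.0118 for all genes tested.

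Among 16 further lectin-like genes of the natural killer gene complex, 1 rose and 2 fell of 8 tested in untimed KLS cells, where 10.6% of all genes rose and 12.5% fell. In untimed GMPs 2 rose and 3 fell of 7, beside 16.6% and 16.5%. Clec9a, a marker of cross-presenting dendritic cells, fell in untimed KLS cells (log2 fold change -4.25 ± 0.47, adjusted p = 0.000357), and Clec12a, an inhibitory receptor of myeloid cells, rose there (log2 fold change 3.78 ± 0.18, adjusted p = 6.28e-06). Cd69, an early activation marker, fell in untimed GMPs (log2 fold change -2.29 ± 0.25, adjusted p = 0.00019). For Daxx-KO at 3 wpi none of 11 passed in KLS cells and none of 9 in GMPs, and 3 of 11 rose in DKO KLS libraries, beside 9.24% of all genes, led by Olr1, a scavenger receptor gene (log2 fold change 5.21 ± 0.94, adjusted p = 0.00608). The neutrophil marker sums given above moved with the DKO group too.

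The chromosome 4 zinc finger list, which leaves out Gm13212, had 34 genes, of which 20 were in the tables and 4 or 5 had enough counts to be tested. In untimed KLS cells 4 of 5 fell, beside 12.5% of all genes, and none rose. Zfp979 was 56.8 and 89.6 in WT and 2.19 and 0 in Daxx-KO libraries, and in untimed GMPs 26 and 35.2 against 0 and 0.408. Zfp979 at 3 wpi was 149, 139 and 96 in WT libraries, 28.3, 8.97 and 37.7 in Daxx-KO libraries and 8.62 and 62.6 in DKO libraries of KLS cells, with both floxed groups below WT and the adjusted p above the threshold. Zfp982 and Zfp984 fell in untimed KLS cells (-1.06 ± 0.26 and -0.86 ± 0.16), and Zfp982 and Zfp933 fell in DKO KLS libraries (-1.18 ± 0.34 and -0.74 ± 0.18). None of 5 passed for Daxx-KO at 3 wpi in KLS cells, where the list's median log2 fold change was -1.08 beside -0.000521 for all genes, nor in GMPs, where it was -0.94 beside -0.0118. In untimed GMPs Zfp979 fell and Zfp933 rose, of 4 tested, beside 16.5% and 16.6% of all genes. Copies in this cluster share sequence, so single values are uncertain.

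Of 26 genes for H3.3, its chaperones and KRAB co-repressors, 24 were tested in each table and Daxx was the gene that fell in all 6 comparisons with WT. At 3 wpi no other gene of the list passed for Daxx-KO in KLS cells or GMPs. The untimed Daxx-KO KLS libraries had 5 that rose, beside 10.6% of all genes, among them Atf7ip, a Setdb1 partner (log2 fold change 0.72 ± 0.10, adjusted p = 0.00104), and Trim28 (log2 fold change 0.52 ± 0.13, adjusted p = 0.0217). In untimed GMPs 5 rose and 6 fell, beside 16.6% and 16.5%, among the latter Uhrf1, which recruits the maintenance DNA methyltransferase (log2 fold change -1.49 ± 0.13, adjusted p = 5.39e-05). In DKO KLS libraries Sp100, H3f3b and Pml rose, beside 9.24% of all genes, Sp100 by 0.87 ± 0.17, Sp100 and Pml being parts of the nuclear bodies in which Daxx resides.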

How the data were processed

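The 36 libraries were bulk RNA-seq libraries of sorted mouse bone marrow cells. The authors deposited a signal value per gene and library (normalized counts), which is the read count after division by that library's size factor. The build was mm10 and the annotation GENCODE M14. The submitters' processing notes list CASAVA 1.8.4, cutadapt 1.13, STAR 2.5.3 and DESeq2 1.16.1, without roles, and the read counter is not given in the sources used here. Statements on the library kit differ between the labels and the study's methods. Dividing by the step of 1 read gave whole reads for 100% of values (within 0.01) in every library, so the total gene reads are known and limit the precision of low counts. The Daxx-KO, WT and DKO comparisons of each table, and Pu.1-KO against WT, were fitted with limma 3.58.1 (R 4.3.3, with its trend option) on log2(value + 1). Genes averaging 10 or more in that table entered, with all libraries of a table in 1 fit and Benjamini-Hochberg adjustment over all genes. The p-values measure the spread between these libraries only. Errors are SD over libraries for levels and SE for log2 fold changes, and intervals of read ratios are exact and conditional on the total.

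Groups came from the labels. GMP libraries at 3 wpi carry animal numbers that the KLS labels pair with a genotype, and 1 WT library per cell type at 3 wpi (unnumbered) and the libraries of the Pu.1 line (a and b) and 24 wpi were assigned by the control or treatment ending of their columns. Of 111 sample columns 75 were not used, because they repeat libraries or could not be tied to a single labelled genotype. Columns of the authors' own comparisons were not used. The 5 genes, the lists and the tests were chosen with earlier results of these data known. Named genes were the 5, Daxx and Spi1, from each list and from the neighbours within 500 kb at most 4 genes per comparison called with the largest absolute fold change, and those of most like pattern. Alternatives were pseudocounts of 0.1 and 8, no filter, TMM scaling, edgeR 4.0.16 and DESeq2 1.42.0 on the recovered reads, leaving out each library, and the replicate number as a block. The fits were tested on simulated data. Same-numbered libraries did not deviate together (r from -0.21 to 0.13), so the numbers were not used to pair.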

Additional observations from a re-analysis of the deposited data

How the results depend on the processing

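All 235 alternatives of the Daxx-KO against WT values of the 5 genes stayed below 0, and no alternative turned the direction of the 61 results of listed and neighbouring genes, of which 101 of 688 alternatives were no longer called. Counts of the 5 genes called lower for Daxx-KO were 3 to 5 in untimed KLS cells, 4 to 5 in untimed GMPs, 2 to 4 in KLS cells at 3 wpi and 1 to 2 in GMPs at 3 wpi when 1 library was left out, and 5 in GMPs at 3 wpi by DESeq2. In untimed GMPs 1700030N03Rik was no longer called in 6 of 11 other settings (edgeR, DESeq2, the replicate block, and without WT 1, WT 2 or Daxx-KO 1). For DKO against WT in GMPs the count was 0 with a pseudocount of 0.1 and in every fit that left out 1 library, and 2 by DESeq2. For DKO against Daxx-KO the count higher was 1 to 2 in KLS cells and 0 to 1 in GMPs when 1 library was left out, and 3 in GMPs by DESeq2. In GMPs of the Pu.1 line the count higher was 1 without a filter and 0 to 3, and the count lower 0 to 1, when 1 library was left out. With the replicate block, which rests on numbers that did not pair the libraries, the counts were 5 in untimed KLS cells, 4 in untimed GMPs, where 1700030N03Rik was lost (adjusted p = 0.0594), and 4, 3 and 2 for Daxx-KO against WT, DKO against WT and DKO against Daxx-KO over the numbered KLS libraries at 3 wpi. With the numbers crossed, added after seeing the data, the count in untimed GMPs was 5. GMP libraries at 3 wpi, 24 wpi and the Pu.1 line carry no replicate number of their own.

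Some log2 differences changed sign, mostly when 1 library was left out. DKO minus Daxx-KO in KLS cells then ranged from -0.55 (without DKO 1) to 1.57 for Zfp951 and from -0.54 (without DKO 2) to 0.68 for Gm13212, and in GMPs from -1.14 to 0.89 (without DKO 2) for Zfp951. DKO minus WT in GMPs ranged from -0.50 to 0.45 for 1700030N03Rik and from -1.26 to 0.50 for Clec2d (both highest without DKO 2), and for 1700030N03Rik it was 0.035 by edgeR and 0.043 by DESeq2. In the Pu.1 line Clec2d in KLS cells ranged from -0.43 to 0.16 (without Pu.1-KO b) and was 0.021 with TMM and 0.040 by edgeR, and Gm13212 in GMPs ranged from -0.27 (without WT b) to 0.33. The cause was not tested. Genes called over the whole table, with the range under the other settings and then when 1 library was left out, numbered 3118 (1751 to 3343 and 419 to 3290) in untimed KLS cells, 4209 (3394 to 4347 and 2162 to 4448) in untimed GMPs, 39 (30 to 342 and 8 to 137) and 13 (9 to 80 and 4 to 11) for Daxx-KO in KLS cells and GMPs at 3 wpi, 2681 (2105 to 3400 and 574 to 2975) and 40 (28 to 263 and 2 to 90) for DKO against WT, 2340 (1283 to 2963 and 672 to 2481) and 8 (5 to 280 and 0 to 71) for DKO against Daxx-KO, and 190 (150 to 1920 and 13 to 6905) and 3412 (2596 to 3478 and 151 to 8163) in KLS cells and GMPs of the Pu.1 line. TMM moved the median of all genes in KLS cells of the Pu.1 line by 0.15 on the log2 scale. The alternatives for 24 wpi, multipotent progenitors and long-term stem cells were not run, because no comparison was fitted there.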

Other observations

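WT animals of different experiments differed in the GMP level of 1700030N03Rik relative to KLS cells. Its GMP to KLS ratio in the same animal, in reads per 1000000 gene reads, was 2.68, 1.6 and 2.86 in the WT animals of the Daxx line at 3 wpi, but 0.567 and 0.27 in those of the Pu.1 line at the same time, and 2.51 and 0.974 at 24 wpi. The ranges of the first and second group do not overlap, and how many other genes differ so was not counted. Cell makeup of these WT KLS libraries differed too. Neutrophil markers summed to 2235, 489 and 26310.0 in the Daxx line (libraries 1, 2 and unnumbered) and to 39708 and 22064 in the Pu.1 line. GMP markers summed to 5077, 13302 and 44859 in the former and to 39918 and 30059 in the latter. The part of cell makeup in this ratio was not tested. Clec2d, which had nearly the same pattern over the Daxx libraries, kept its ratio across the same animals, at 0.514 and 0.463 in the Pu.1 line and 0.45 and 0.521 at 24 wpi. No test was made, since line, experiment and table cannot be told apart.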
